A study of Mus musculus with 12 samples.

Results

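The genes Msr1, Marco, Scarb1, Olr1, Colec12 and Cd5l were followed in sorted cardiac macrophages (Mφ). They were picked by symbol as scavenger receptors and scavenger proteins other than Cd36 and Cd163, and make up 6 of the 24445 gene symbols counted in each library. RNA was sequenced from Mφ of 12 hearts of adult male C57BL6/J mice, in 3 groups of 4 mice. Control mice (Ct) are labelled as carrying a saline pump. Vehicle was given for 14 or 28 days in the study, and which of these applies to each Ct mouse is not stated in its label or the methods. Early concentric hypertrophy mice (ECH) had received isoproterenol, a β-adrenergic agonist, by pump at 30 mg/kg/day for 14 days, and heart failure mice (HF) the same dose for 28 days. The labels give no transgene or deletion for any group. Cells were sorted for CD14 and CD64 within a CD11b+ gate, and each library is 1 mouse. Since these are bulk libraries, fewer cells of a type and less RNA per cell cannot be told apart.

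Scavenger receptors are a loose family of surface proteins that bind modified lipoproteins, microbial surfaces and cell debris, and carry them into the Mφ for degradation. They are grouped into classes by structure rather than by descent. Msr1, Marco and Colec12 belong to class A, whose members have a collagen-like stalk. Scarb1 belongs to class B together with Cd36, and Olr1 to the C-type lectin-like class E. Cd5l is not a receptor but a protein secreted by tissue Mφ, built from the cysteine-rich domains that also occur in Msr1, Marco and Cd163. In the heart, uptake of this kind is known for the clearance of dying cells and their lipids.

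Totals ran from 88466559 to 111180291 counts per library. Of the sorted antigens, Cd14 averaged 2537, 2387 and 2101 CPM (counts scaled to each library's total, with TMM factors) in Ct, ECH and HF, and Fcgr1 (CD64) 120.3, 124 and 159 CPM. Itgam (CD11b), the gating antigen, averaged 373, 709 and 579 CPM in the same order, without overlap between Ct and ECH. A list of 7 Mφ markers that also holds Adgre1, Csf1r, Itgam, Mertk and the general myeloid gene Lyz2 summed to 20890 to 30900 CPM per library, of which Lyz2 was the largest part. Mertk averaged 117, 317 and 117 CPM. None of the 7 was called with edgeR (tests below), beside 0.356%, 0.377% and 0% of all genes. DESeq2 gave an adjusted p under 0.05 for 2 of 7 in ECH against Ct (Itgam and Mertk), beside 3.87% of all genes. It did so for 0 of 7 in HF against Ct and 1 of 7 (Mertk) in HF against ECH, beside 5.73% and 0.605%. Ct library 2 and HF library 1 had the fewest genes detected, 14489 and 13600, and held 0 for 127 and 188 genes that had at least 100 counts in all other libraries. Sample descriptions carry library numbers that repeat, from which it was inferred that Ct 1 to 4 and ECH 1 and 2 form a first set of libraries, and ECH 3 and 4 and HF 1 to 4 a second. Neither the labels nor the methods state what the sets are. Sample titles also carry codes, shared by Ct 1 and 2 (C19), Ct 3 and 4 (C24), ECH 3 and 4 (C23) and HF 1 and 2 (C13). What the codes mean is not stated, and their part in the results was not tested. ECH 3 and 4 share both code and set, which cannot be told apart within ECH. HF against Ct cannot be told apart from the set, whereas ECH was present in both sets. The sum of 5 B cell markers was 96.6 to 446 CPM in Ct, 34.3 to 79.8 in ECH and 50.1 to 74.6 in HF. All 5 of these genes were estimated lower in ECH and in HF than in Ct. With edgeR 1 of 5 was called lower in each comparison, beside 0.356% and 0.377% of all genes called. Libraries did not overlap with Ct for 5 of 5 in ECH and 4 of 5 in HF, beside 7.97% and 9.04% of all genes. DESeq2 gave an adjusted p under 0.05 for 4 of 5 in each, beside 3.87% and 5.73% of all genes. The part of these differences in the results on scavenger receptors was not tested.

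The mean levels of the 6 genes over all libraries spread 150.0-fold, from Msr1 at the top to Cd5l at the bottom. Per kb of annotated exon, Msr1 stood at 58.3 CPM per kb in Ct, 87.2 in ECH and 85.6 in HF. Colec12 came next with 25.1, 28.2 and 27.5 CPM per kb in the same order, and Scarb1 followed with 6.31, 5.91 and 5.36. The order Msr1, Colec12, Scarb1 held in 12 of 12 libraries, with ratios of the overall means of 2.86 between the first pair and 4.59 between the second pair. Scarb1 in turn was above Marco in 12 of 12 libraries, at a ratio of 4.55.

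The lower part of the order was not fixed. Marco gave 1.27, 1.35 and 1.25 CPM per kb in Ct, ECH and HF, Olr1 0.692, 1.27 and 1.497, and Cd5l 0.659, 0.242 and 0.644. Marco was above Olr1 in 8 of 12 libraries and Olr1 above Cd5l in 9 of 12, and each of the 3 genes took every rank from 4 to 6 in some library. Neighbours in this part of the order therefore did not differ beyond their spread. With the length of the longest coding transcript in place of all exons, a choice made after seeing the data, the order of the means was the same but the distances were not. The means were then 134, 29.3, 19.8, 1.29, 1.15 and 0.515 CPM per kb for Msr1, Colec12, Scarb1, Marco, Olr1 and Cd5l, so that Colec12 and Scarb1 lay closer together and Scarb1 and Marco farther apart than with all exons.

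By mean CPM per kb of annotated exon, Msr1 ranked 7, Colec12 9 and Scarb1 12 of 24 scavenger receptor genes in each group. The 24 are the 6 genes with 18 others. Ranks were not taken with the longest coding transcript, which for Msr1 has 3636 bases beside 6344 of exon, and may differ with it. Marco ranked 14, 14 and 15 in Ct, ECH and HF, Olr1 15, 15 and 14, and Cd5l 17, 19 and 16. The genes above Msr1 were Cd68, Mrc1, Cd163, Cd36, Cxcl16 and Stab1. In raw counts, which favour long transcripts, Msr1 alone supplied 44.4% to 66.9% of the counts of the 6 genes in a library, and Msr1 with Colec12 87.4% to 96.1%.

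**Figure D1:**
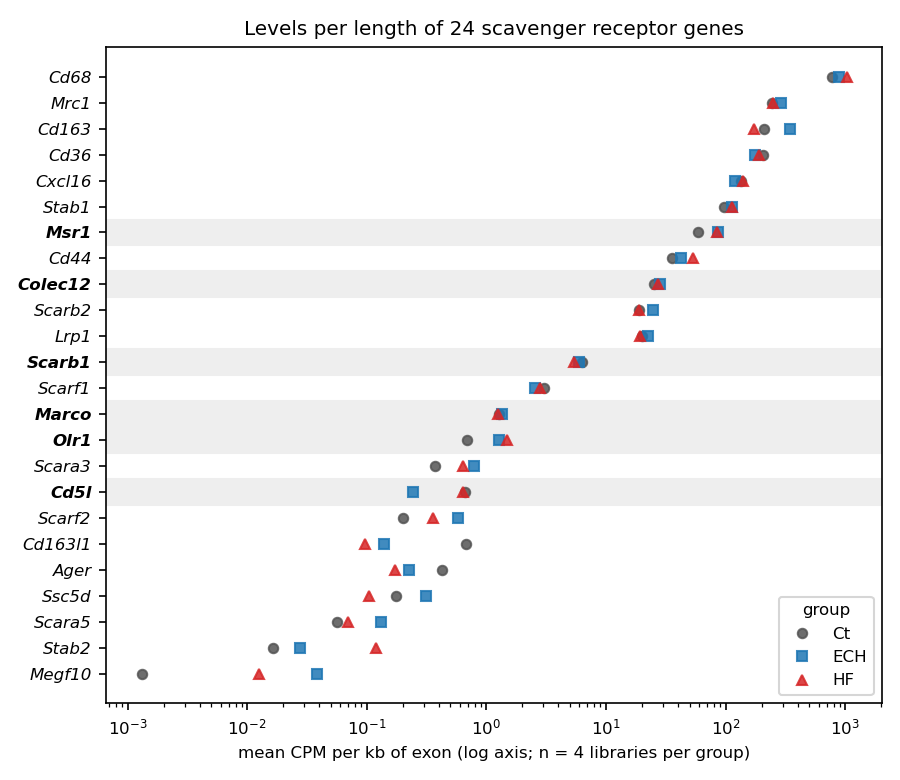
Mean level of 24 scavenger receptor genes in CPM per kb of exon (log axis), with 1 point per group (Ct, ECH, HF; n = 4 libraries each, no error drawn) and the 6 genes of interest in bold on grey. Msr1 and Colec12 lie in the upper part of the order at 25.1 to 87.2 CPM per kb, Scarb1 in the middle at 5.36 to 6.31, and Marco, Olr1 and Cd5l at or below 1.497.

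To ask whether isoproterenol changed these genes, each pair of groups was compared with edgeR's quasi-likelihood test over 14608 genes, and a gene was called at a false discovery rate (FDR, Benjamini-Hochberg) under 0.05 with at least a 2-fold difference. All 6 genes passed the filter on low counts. None was called in ECH against Ct, where 0.356% of all genes were, none in HF against Ct, where 0.377% were, and none in HF against ECH, where 0% of genes were called. DESeq2 also called 0 of 6 in each comparison, and 0 of 6 had an adjusted p under 0.05, beside 3.87%, 5.73% and 0.605% of the genes to which it gave one in ECH against Ct, HF against Ct and HF against ECH. At an unadjusted p under 0.05, 1 of 6 passed in ECH against Ct and 1 of 6 in HF against Ct, Msr1 both times, beside 11.9% and 16.1% of all genes, and 0 of 6 in HF against ECH, beside 7.98%. In no comparison did the libraries of 2 groups separate without overlap for any of the 6, which they did for 7.97%, 9.04% and 6.92% of all genes in ECH against Ct, HF against Ct and HF against ECH. The median log2 difference of the 6 was 0.13, 0.056 and -0.033 in these comparisons, beside 0.010, -0.015 and -0.018 over all genes.

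**Figure D2:**
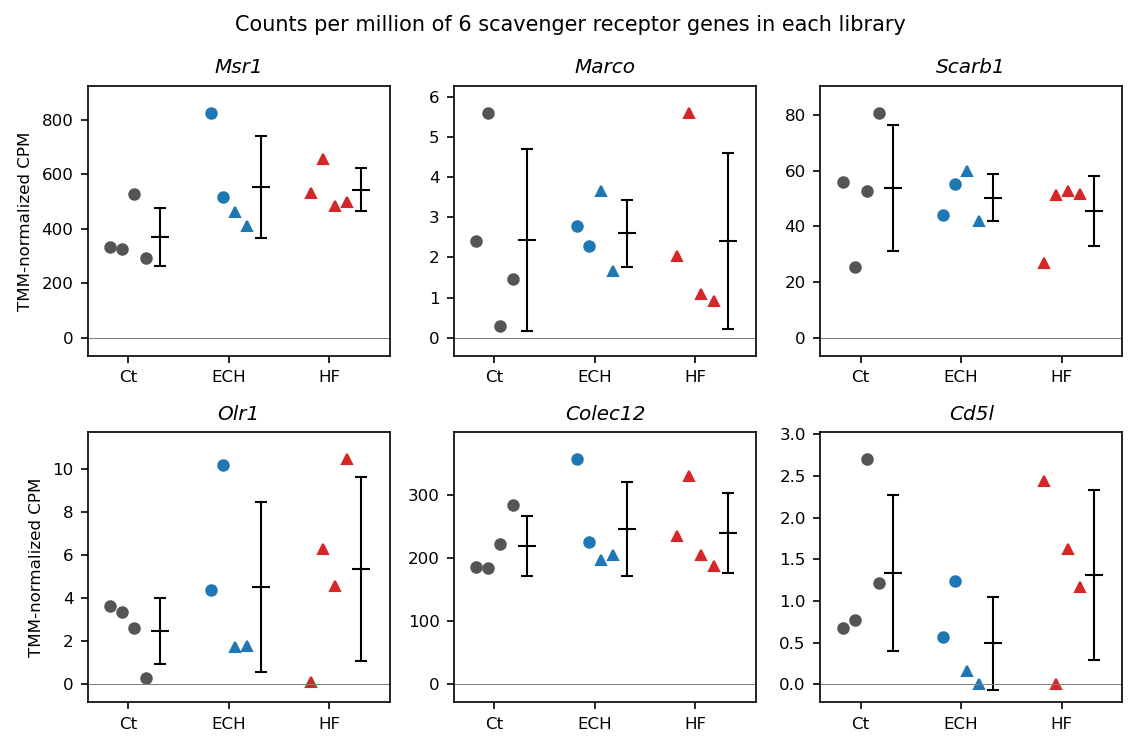
TMM-normalized CPM of each gene in each library (linear axes, a grey line at 0), in library order within Ct, ECH and HF, with the mean and SD of the 4 libraries as bars beside the points. Circles are the first and triangles the second inferred set of libraries, and the points of all 3 groups overlap for each gene, with the highest Msr1 and Colec12 in ECH 1 and Cd5l at 0 in ECH 4 and HF 2.

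Msr1 encodes the class A receptor that takes up acetylated and oxidized LDL and is a common marker of tissue Mφ. The gene lies on chromosome 8 at 39581685 to 39642673 on the minus strand (GRCm38, GENCODE M21). It was the most abundant of the 6, and its mean was higher after isoproterenol, by an amount that did not pass the test. In Ct libraries 1 to 4 it measured 334, 324, 528 and 293 CPM, a mean of 370.1 ± 107 (SD, n = 4). The ECH libraries held 825, 516, 462 and 411 CPM, or 553 ± 186, and the HF libraries 532, 657, 483 and 499 CPM, or 543 ± 78.9. Every ECH and HF library was above 3 of the 4 Ct libraries, and Ct 3, the highest control, lay within the range of both isoproterenol groups.

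The fitted difference of Msr1 in ECH against Ct was 0.58 on the log2 scale (1.495-fold, SE 0.23, 95% interval 0.077 to 1.08), with an edgeR FDR of 0.342. In HF against Ct it was 0.55 (1.47-fold, SE 0.23, 95% interval 0.0497 to 1.055), with an edgeR FDR of 0.274. HF and ECH differed by -0.028 (SE 0.23, 95% interval -0.53 to 0.47, edgeR FDR 0.998), so that a 2-fold difference between 14 and 28 days lay outside the interval in either direction. Msr1 had 27885 to 83324 counts per library.

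The size of this difference moved with single libraries. Without Ct 3, Msr1 gave 0.80 in ECH against Ct (edgeR FDR 0.128) and 0.78 in HF against Ct (FDR 0.0917). Without ECH 1 the difference of ECH against Ct was 0.32 (edgeR FDR 0.612). Within the first set of libraries, ECH 1 and 2 against the 4 Ct libraries gave 0.85 (edgeR FDR 0.827), and within the second set the 4 HF libraries were 0.32 above ECH 3 and 4 (FDR 0.275). Over all alternatives the FDR of Msr1 ran from 0.128 to 0.827 in ECH against Ct and from 0.0917 to 0.442 in HF against Ct. ECH 1 also held the highest sum of the 7 Mφ markers, 30900 CPM, most of it Lyz2. Ct 3 held the highest sum of 6 resident Mφ markers, 9642 CPM beside 5033 to 8323 in all others, of which F13a1 was the largest part on average.

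The sum of 5 Ly6C-high monocyte markers was 291 to 589 CPM in Ct (median 414), 508 to 687 in ECH (median 575) and 539 to 903 in HF (median 695), and Ct 3 was the highest control. None of the 5 was called, and 3 of 5 were estimated higher in ECH and 2 of 5 in HF than in Ct. Of the 6 resident markers, 3 were estimated higher in ECH and 2 in HF than in Ct, with median log2 differences of -0.039 and -0.014. Timd4 averaged 166 CPM in Ct, 54.0 in ECH and 87.1 in HF, and was the 1 of the 6 called, lower in ECH than in Ct (edgeR FDR 0.0341). F13a1 averaged 3438 CPM in Ct and 4279 in ECH (FDR 0.633), Folr2 averaged 620.4 and 422 CPM without overlap (FDR 0.216), and Itgam 373 and 709 CPM without overlap (FDR 0.132). The part of these markers in the Msr1 values was not tested.

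Colec12 is the class A member that ends in a C-type lectin domain, and it is known mainly from endothelial cells. It lies on chromosome 18 at 9707595 to 9882644 on the plus strand. The Ct libraries gave 186, 183, 222 and 284 CPM (219 ± 47.1, SD, n = 4). The ECH libraries gave 356, 226, 197 and 205 CPM (246 ± 74.2), and the HF libraries 235, 330.0, 205 and 188 CPM (239.6 ± 63.4). ECH 1 and HF 2 were high and the other 6 isoproterenol libraries lay inside the Ct range. The log2 difference was 0.17 in ECH against Ct (95% interval -0.33 to 0.66, edgeR FDR 0.823), 0.13 in HF against Ct (-0.36 to 0.63, FDR 0.8286) and -0.037 in HF against ECH (-0.53 to 0.46, FDR 0.998).

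Markers of endothelial cells and fibroblasts were read beside Colec12. The sum of 8 endothelial markers, among them Pecam1, Cdh5 and Kdr, was 8.26 to 31.4 CPM over all libraries, below Colec12 alone in each. The sum of 8 fibroblast markers was 29.0 to 195 CPM in Ct, 81.2 to 429 in ECH and 82.7 to 247 in HF, and overlapped the range of Colec12. No fibroblast or endothelial marker was at 0 in all libraries of a group. ECH 4 had the highest fibroblast sum, 429 CPM, with Colec12 at 205 CPM, whereas ECH 1, with the highest Colec12, had a fibroblast sum of 229 CPM. Their part in the Colec12 values was not tested.

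Marco is the class A receptor of marginal zone, alveolar and some cavity Mφ, where it binds bacteria and particles. It lies on chromosome 1 at 120474538 to 120505024 on the minus strand. Ct libraries held 2.41, 5.58, 0.303 and 1.46 CPM (2.44 ± 2.27, SD, n = 4), from 30 to 480 counts. ECH libraries held 2.77, 2.30, 3.66 and 1.67 CPM (2.6 ± 0.840), and HF libraries 2.05, 5.59, 1.08 and 0.911 CPM (2.41 ± 2.18). Ct 2 and HF 2 were the highest and Ct 3 the lowest, so the spread within Ct spanned nearly that of all 12 libraries. The log2 difference was 0.093 in ECH against Ct (95% interval -1.59 to 1.78, edgeR FDR 0.981), -0.018 in HF against Ct (-1.70 to 1.67, FDR 0.994) and -0.11 in HF against ECH (-1.79 to 1.57, FDR 0.998). Without Ct 2 it was 0.90 in ECH against Ct and 0.79 in HF against Ct. It was -0.855 in HF against Ct without HF 2, and -0.28 in ECH against Ct without Ct 3. Markers of cavity Mφ such as Gata6 and Prg4 were also low, with a sum of 6 genes of 13.2 to 28.5 CPM in Ct, 15.2 to 34.7 in ECH and 14.8 to 25.5 in HF.

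Scarb1 encodes SR-BI, the class B receptor for HDL that mediates selective uptake of cholesteryl esters. It lies on chromosome 5 at 125277087 to 125341094 on the minus strand. Its values in Ct were 55.8, 25.4, 52.7 and 80.6 CPM (53.6 ± 22.6, SD, n = 4). In ECH they were 44.2, 55.1, 59.8 and 42.0 CPM (50.3 ± 8.53), and in HF 26.9, 51.1, 52.7 and 51.6 CPM (45.6 ± 12.5). All ECH and HF values fell inside the Ct range, and the lowest values of all were in Ct 2 and HF 1, the libraries with the fewest genes detected. The log2 difference was -0.094 in ECH against Ct (95% interval -0.74 to 0.55, edgeR FDR 0.937), -0.24 in HF against Ct (-0.88 to 0.41, FDR 0.756) and -0.14 in HF against ECH (-0.79 to 0.50, FDR 0.972). Without Ct 2 and HF 1 together, which was tried after seeing the data, the differences were -0.34, -0.29 and 0.047, with edgeR FDRs of 0.465 and 0.481 for the first pair.

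Intervals of Scarb1 and Colec12 stayed inside 2-fold in both directions in all 3 comparisons, as did that of Msr1 in HF against ECH. With a term for the library set, the interval of HF against Ct widened to -1.44 to 0.89 for Scarb1 and to -0.13 to 1.45 for Colec12. For ECH against Ct within the first set, Scarb1 reached -1.04 and Colec12 1.0. Leaving out HF 2, HF 3 or HF 4 took the lower bound of Scarb1 in HF against Ct to between -1.043 and -1.026. For Msr1 against Ct the upper bounds lay just past 2-fold. With the term for the library set they were 1.38 in ECH against Ct and 1.94 in HF against Ct. They were past 2-fold in 19 of 20 alternative edgeR fits of ECH against Ct and in 16 of 19 of HF against Ct.

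Olr1 encodes LOX-1, the lectin-like receptor for oxidized LDL, which is known from endothelial cells and activated Mφ. It lies on chromosome 6 at 129485244 to 129507165 on the minus strand. Ct libraries measured 3.64, 3.34, 2.62 and 0.290 CPM (2.47 ± 1.52, SD, n = 4). ECH libraries measured 4.39, 10.2, 1.74 and 1.78 CPM (4.52 ± 3.96), and HF libraries 0.105, 6.30, 4.55 and 10.4 CPM (5.35 ± 4.28). HF thus held both the lowest and the highest value of all libraries, 11 counts in HF 1 and 1168 in HF 4. The mean was higher than in Ct in both groups, but neither difference passed the test. The log2 difference was 0.87 in ECH against Ct (1.83-fold, 95% interval -1.27 to 3.01, edgeR FDR 0.782) and 1.11 in HF against Ct (2.16-fold, -1.04 to 3.27, FDR 0.638). In HF against ECH it was 0.24 (-1.88 to 2.37, FDR 0.988). The difference in ECH against Ct was 0.094 without ECH 2, 0.50 without Ct 4 and 1.14 without ECH 3 or without ECH 4. In HF against Ct it was 0.56 without HF 4, 0.74 without Ct 4 and 1.52 without HF 1. HF 1 is the library with the fewest genes detected, and without it and Ct 2 the difference in HF against Ct was 1.69. A set of 7 neutrophil markers such as S100a8 and Ly6g summed to 208 to 1506 CPM in Ct, 85.8 to 577 in ECH and 54.7 to 1055 in HF, with overlap between the groups, and Camp was at 0 in all HF libraries. Ngp averaged 52.0, 39.4 and 0.440 CPM in Ct, ECH and HF, without overlap between HF and Ct (edgeR FDR 0.0691). DESeq2 gave an adjusted p under 0.05 for 2 of 7, Ngp and Camp, in both HF against Ct and HF against ECH, beside 5.73% and 0.605% of all genes. The part of these markers in the Olr1 values was not tested.

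Cd5l encodes the secreted protein also called AIM, which binds lipids and acts on Mφ survival, and is known from liver and spleen Mφ. It lies on chromosome 3 at 87357881 to 87371073 on the plus strand. Ct libraries held 0.680, 0.768, 2.70 and 1.22 CPM (1.34 ± 0.936, SD, n = 4), from 66 to 267 counts. ECH libraries held 0.564, 1.24, 0.162 and 0 CPM (0.492 ± 0.553), and HF libraries 2.44, 0, 1.63 and 1.17 CPM (1.31 ± 1.02). The count was 0 in ECH 4 and HF 2, which allows up to 0.0259 and 0.0277 CPM (3 counts, counting error only), and 18 in ECH 3. Genes with exactly 2 counts outnumbered those with 1 or 3 in each of the 12 libraries, so a count may not be an independent fragment and the true limit may be higher. The ECH mean was the lowest of the groups, but the log2 difference was -1.45 in ECH against Ct with a 95% interval of -4.61 to 1.72 (edgeR FDR 0.750). HF and Ct differed by -0.034 (-3.13 to 3.06, FDR 0.994) and HF and ECH by 1.41 (-1.75 to 4.57, FDR 0.898). Leaving out 1 library gave -2.47 (without ECH 2) to -0.85 (without Ct 3) in ECH against Ct, and 0.92 (without HF 1) to 2.43 (without ECH 2) in HF against ECH. For Cd5l, Olr1 and Marco each of these intervals held 2-fold in both directions, so that a 2-fold difference was within the error of 4 mice per group.

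**Figure D3:**
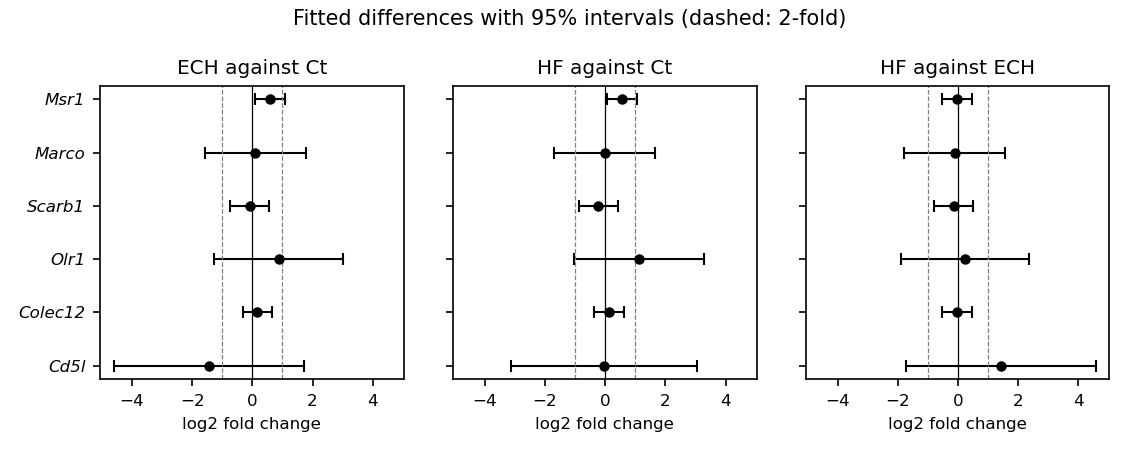
Fitted log2 fold change of each gene (points) with its 95% interval (bars, edgeR quasi-likelihood, n = 4 libraries per group) in the 3 comparisons, with dashed lines at 2-fold. Bars of Scarb1 and Colec12 stay between the dashed lines in all 3, those of Msr1 against Ct end just past 2-fold, and those of Marco, Olr1 and Cd5l cross both.

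The inferred library set moved the estimates of several genes. With the set as a covariate, Msr1 gave 0.86 in ECH against Ct and 1.17 in HF against Ct (edgeR FDR 0.320 and 0.123), and Olr1 3.16 in HF against Ct (FDR 0.410). Cd5l, which was at 18 counts and 0 in the ECH libraries of the second set, gave 4.002 in HF against ECH (edgeR FDR 0.384). This fit takes the difference between the sets from the 4 ECH libraries alone.

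**Figure D4:**
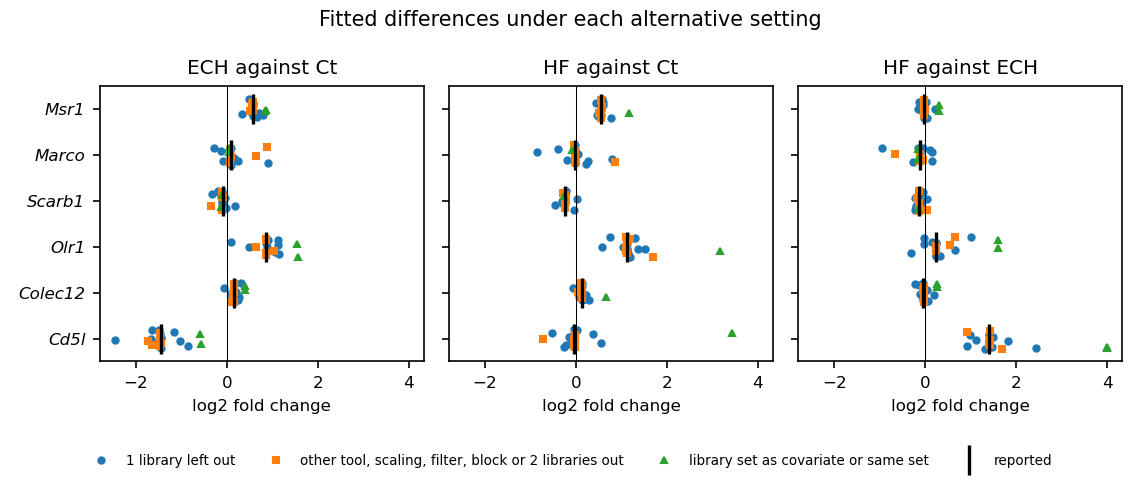
Fitted log2 fold change of each gene in the 3 comparisons as reported (black bar) and under the alternatives: 1 library left out (circles), another tool, scaling, filter, block or both of Ct 2 and HF 1 left out (squares), and a term for the library set or only libraries of 1 set (triangles). Msr1 stays above 0 against Ct throughout, and the triangles lie farthest from the bars for Cd5l, at 3.43 in HF against Ct and 4.002 in HF against ECH.

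Of 18 other scavenger receptor genes, 17 passed the filter on low counts and 0 of 17 had an edgeR FDR under 0.05 in any comparison. DESeq2 gave an adjusted p under 0.05 for 0, 1 (Cd68) and 1 (Cd163) of them in ECH against Ct, HF against Ct and HF against ECH, beside 3.87%, 5.73% and 0.605% of all genes. At an unadjusted p under 0.05 there were 2 in each comparison, beside 11.9%, 16.1% and 7.98% of all genes. In the same order, 12, 10 and 6 of the 17 were estimated higher, beside 51.1%, 48.8% and 48% of all genes. Their median log2 differences were 0.25, 0.027 and -0.24. The lowest p in this list belonged to Cd163, the haemoglobin-haptoglobin receptor, whose mean was 1882 CPM in ECH and 939 in HF (log2 difference -1.003, edgeR FDR 0.490). With the library set as a covariate this difference was -1.26 and was called (edgeR FDR 0.0201), and over all alternatives its FDR ran from 0.0134 to 1. Cd68, a lysosomal glycoprotein used as a Mφ marker, was 1.33-fold higher in HF than in Ct without overlap of the libraries, at an edgeR FDR of 0.126. The hyaluronan receptor Cd44 gave 0.59 on the log2 scale in HF against Ct (edgeR FDR 0.223), and the lysosomal class B member Scarb2 gave 0.37 in ECH against Ct (FDR 0.366).

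Lipoproteins are among the cargo of some of these receptors, and 14 genes of lipoprotein and cholesterol handling were read beside them. In ECH against Ct, 1 of the 14 had an edgeR FDR under 0.05, beside 0.472% of all genes, and none had one in HF against Ct, where 0.513% did, or in HF against ECH. DESeq2 gave an adjusted p under 0.05 for 3 of the 14 in ECH against Ct, beside 3.87% of all genes, and 0 in the other comparisons. The gene passing in edgeR was Soat1, the enzyme that esterifies cholesterol for storage in droplets. Soat1 measured 95.02, 84.3, 74.4 and 87.3 CPM in Ct, 142, 118, 212 and 161 in ECH and 111, 135, 111 and 137 in HF. All ECH and HF libraries were above all Ct libraries. The log2 difference in ECH against Ct was 0.89 (1.86-fold, SE 0.17, edgeR FDR 0.0359), which is below the 2-fold limit for a call. Over the alternatives the FDR of Soat1 ran from 0.000136 to 0.777, and it was under 0.05 in 5 of 21. Without ECH 2 the difference was 1.01 and was called (edgeR FDR 0.0214).

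Plin2, a coat protein of lipid droplets, and Nceh1, a hydrolase of cholesteryl esters, were named after their values were seen, as the other genes of this list with an unadjusted p under 0.05 in ECH against Ct. Plin2 gave 1.10 on the log2 scale (edgeR FDR 0.157, and called by DESeq2 with an adjusted p of 0.0223) and Nceh1 0.75 (edgeR FDR 0.159). ECH 3 and 4 held 1211 and 977 CPM of Plin2, whereas ECH 1 and 2, at 475 and 472, lay below Ct 1 at 556. Within the first library set Plin2 gave 0.37 (edgeR FDR 0.951) and with the set as a covariate 0.37 (FDR 0.760), and without ECH 3 it gave 0.81 (FDR 0.467). Of the 14 genes, 10 were estimated higher in ECH than in Ct, 9 higher in HF than in Ct and 4 higher in HF than in ECH, beside 51.1%, 48.8% and 48% of all genes. Their medians were 0.091, 0.062 and -0.21, beside 0.010, -0.015 and -0.018 over all genes.

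Of 8 transcription factors known to act on some of the 6 genes, 0 had an edgeR FDR under 0.05 in any comparison. Unadjusted p values under 0.05 were found for 2 in ECH against Ct, 2 in HF against Ct and 0 in HF against ECH, beside 11.9%, 16.1% and 7.98% of all genes. In the same order 4, 5 and 4 of the 8 were estimated higher, beside 51.1%, 48.8% and 48% of all genes. DESeq2 gave an adjusted p under 0.05 for 1 of them, Nr1h3 in HF against Ct, beside 5.73% of all genes. Their medians were 0.0029, 0.14 and 0.019. Nr1h3 encodes LXRα, an oxysterol receptor that drives Cd5l in Mφ. It measured 4.83, 5.14, 11.2 and 6.98 CPM in Ct, 11.0, 11.3, 11.8 and 10.9 in ECH and 14.9, 10.5, 16.4 and 12.4 in HF. Ct 3 stood apart from the other controls here as it did for Msr1, and reached the range of the ECH libraries. The log2 difference in HF against Ct was 0.95 (edgeR FDR 0.145), and without Ct 3 it was 1.26 and called (FDR 0.0331). Over the alternatives its FDR ran from 0.0170 to 0.414 and was under 0.05 in 2 of 20, of which 1 was a call. Srebf1, a regulator of lipid synthesis, gave 0.48 in ECH against Ct (edgeR FDR 0.282). Rxra, the partner of LXRα, gave -0.33 in HF against Ct (edgeR FDR 0.504).

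The genes most like each of the 6 over the 12 libraries are given as a description, by Pearson's r of log2 CPM among the 14608 genes tested. These points share library, depth and group. For Msr1 they were Surf4 and Srxn1 (r = 0.934 for both) and Mgat2 (0.928), and for Scarb1 Mcm3ap, Dhx57 and Plxnb2 (0.944, 0.943 and 0.937). For Colec12 they were Nek10, Shisa9 and Kcnma1 (0.862, 0.828 and 0.81). For Olr1 they were Mir155hg, Chek1 and Timm22 (0.925, 0.92 and 0.918). Marco was most like Zfp933, I730030J21Rik and Liph (0.863, 0.853 and 0.848), and Cd5l most like A630077J23Rik, Isg20 and Scn4a (0.87, 0.869 and 0.865). Among the 15 pairs of the 6 genes themselves, r ran from -0.493 for Marco with Cd5l to 0.577 for Msr1 with Colec12.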

How the data were processed

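CD14+/CD64+ cardiac Mφ of 12 mice were sequenced after SMART-Seq v4 amplification on a NextSeq 500 as paired ends. Samples were grouped by the condition in their labels (Ct, ECH, HF). The authors trimmed reads with Trimmomatic, aligned them to mm10 with TopHat2 and deposited raw featureCounts counts per gene symbol. The sources used here do not give tool versions, annotation or strand setting, or say whether a count is a read or a fragment. Libraries carry no molecular identifiers, so a limit for a count of 0 (3 counts) covers counting error only.

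The tests were run with edgeR 4.0.16 under R 4.3.3. The filterByExpr filter was applied by group (minimum count 10, leaving 14608 genes), counts were scaled by TMM, and 1 mean per group was fitted to the 12 libraries with the quasi-likelihood method (biological coefficient of variation 60.8%). Benjamini-Hochberg adjustment of p values covered every gene in the fit. A call needed an FDR under 0.05 and a 2-fold difference, the limits of the study's methods. Intervals are 95% intervals of the fit. CPM are TMM-normalized. Exon lengths and positions come from GENCODE M21 (GRCm38), in which 23509 symbols were matched, and no other annotated gene touched an exon of the 6 genes. Figures were drawn in Python 3.11.15.

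The genes, the lists and the tests were chosen with earlier results of these data known. All 6 genes are named in every comparison. From the other lists, genes with an FDR under 0.05 in any comparison are named, and otherwise the 4 with the lowest p. A gene that this rule names is not reported here. Alternatives were RLE scaling, DESeq2 1.42.0, no filter, a floor of 1 CPM exceeded in 4 libraries, no fold limit, a fit to only the groups compared, the library set as a covariate, a replicate block, comparison within 1 library set, and leaving out each library. Leaving out Ct 2 and HF 1 together and the transcript length were added after seeing the data. Protein and promoter sequences were not used here.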

Additional observations from a re-analysis of the deposited data

Results flagged for a closer look

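Among 51 groups of 4 libraries screened for a value far from the other 3 (Dixon's test), which chance flags in about 1 in 20, 3 values stood out. Scarb1 in HF 1 was 26.9 CPM, with the nearest HF library at 51.1 CPM (gap over range 0.936). Srebf1 in Ct 2 was 23.9 CPM, with the nearest Ct library at 39.7 CPM (0.869). HF 1 and Ct 2 are the libraries with the fewest genes detected, and their part in these values was not tested. Plin2 in Ct 1 was 556 CPM, with the nearest Ct library at 317 CPM (0.883).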

How the results depend on the processing

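The 18 differences of the 6 genes were refitted under each alternative, giving 372 values. Of these 337 kept their sign and their side of the threshold, 35 turned in sign, and 0 had an FDR under 0.05, and 0 of 6 genes was called under each alternative run. With the set as a covariate, Cd5l in HF against Ct turned to 3.43, and in HF against ECH Msr1 turned to 0.32 and Colec12 to 0.25. Within the second set alone, Msr1 turned to 0.32 and Colec12 to 0.25 in HF against ECH. Without Ct 2 and HF 1 together, Marco turned to 0.85 in HF against Ct and Scarb1 to 0.047 in HF against ECH. The causes were not tested.

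Leaving out 1 library at a time gave sign changes over these ranges of log2 differences. In ECH against Ct they were -0.28 to 0.90 for Marco, -0.33 to 0.17 for Scarb1 and -0.063 to 0.32 for Colec12. In HF against Ct they were -0.85 to 0.79 for Marco, -0.47 to 0.030 for Scarb1, -0.062 to 0.28 for Colec12 and -0.52 to 0.56 for Cd5l. In HF against ECH they were -0.15 to 0.23 for Msr1, -0.95 to 0.16 for Marco, -0.22 to 0.043 for Scarb1, -0.31 to 1.02 for Olr1 and -0.23 to 0.19 for Colec12.

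The number of genes called depended on the setting. In ECH against Ct it was 52, against 297 with DESeq2, 8 with only the groups compared, 22 with the set as a covariate and 1 within the first set. In HF against Ct it was 55, against 431 with DESeq2 and 208 with the set as a covariate. In HF against ECH it was 0, against 65 with DESeq2, 272 with the set as a covariate and 370 within the second set. Leaving out 1 library gave 11 to 95 genes in ECH against Ct, with 11 without Ct 1, 95 without Ct 3, 26 without Ct 4, 17 without ECH 3 and 27 without ECH 4. In HF against Ct it gave 15 to 103, with 15 without Ct 1, 103 without Ct 3, 25 without Ct 4, 36 without ECH 1, and 33, 18, 19 and 25 without HF 1, 2, 3 and 4. In HF against ECH it gave 0 each time.

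Samples with the same replicate number did not deviate together (r of their deviations from the group means from -0.070 to 0.069 over 12 pairs), so the numbers were not taken to pair them. With the replicate block, 22 genes were called in ECH against Ct and 18 in HF against Ct, Msr1 in HF against ECH turned to 0.0056, and 0 of the 6 genes was called. Marco, Olr1 and Cd5l had 0 to 1168 counts per library.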
